A study of Mus musculus with 6 samples.

Results

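*Ebf1* and *Foxo1* encode transcription factors that B cell development depends on, and the chromatin of both genes was examined in pre-B cells with 3 ChIP-seq peak lists, for acetylated lysine 27 of histone H3 (H3K27ac), trimethylated lysine 4 of histone H3 (H3K4me3) and the transcription factor Pax5. These 2 genes of 22350 protein-coding genes were chosen by name, and each locus was taken as the gene body in GENCODE M1 (build NCBIM37, the same assembly as mm9) with 50 kb on each side. Together the loci held 96 of the 69345 H3K27ac rows, 11 of 17979 regions of H3K4me3, and 15 of 15445 rows of Pax5. A row is 1 interval of a deposited list, and an H3K4me3 region is a run of listed bins of 25 bp joined across gaps of up to 100 bp.

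The cells were bone marrow pre-B cells of RAG-/- µ+ mice of strain C57BL/6, males and females aged 6 to 14 weeks. These mice lack the recombinase that cuts antigen receptor genes and express a heavy chain from an IgM transgene that is already rearranged, and all samples shared this genotype. There was 1 library for each of H3K27ac, H3K4me3 and Pax5 and there were 3 input samples, whose reads were not used here. With 1 library per list there was no replicate check and no test between groups, and every value below describes these libraries only. Sequencing depth cannot be read from the lists, which hold no counts. Whether the marrow of several mice was pooled for each library is not given in the sources used here.

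Ebf1 (early B cell factor 1) is a DNA-binding protein that commits progenitors to the B lineage, opens closed chromatin and switches on genes of the pre-B cell receptor. Its gene is known to be transcribed from a distal and a proximal promoter, and Pax5, the factor that holds B cell identity, is known to act on *Ebf1* as well as to be activated by it. Foxo1 is a forkhead factor that activates *Rag1*, *Rag2* and *Il7r*, and signalling through PI3-kinase and Akt moves it out of the nucleus. H3K27ac marks active promoters and enhancers, whereas H3K4me3 marks the starts of transcribed genes.

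*Ebf1* (ENSMUSG00000057098.7) lay on the plus strand at chr11:44430819-44821593, a body of 390.775 kb with 8 transcripts. Its 5 annotated starts formed 4 groups when starts within 500 bp were joined. The first was at 44430819, the second spanned 44431618 to 44431681, the third was at 44435263 and the fourth lay inside the gene at 44725640. *Foxo1* (ENSMUSG00000044167.5) lay on the plus strand at chr3:52072259-52154031, a body of 81.773 kb with 1 transcript and 1 start. Distances below are counted from the first start of each gene, with upstream positions negative.

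The sequences that the results return to are shown first. The first pair holds the bases directly before the annotated starts, from NCBIM37, plus strand, with the EBF motif (TCCC and GGGA with any 2 bases between them) in capitals where it occurred.
Ebf1, 250 bp before the first start, chr11:44430569-44430818: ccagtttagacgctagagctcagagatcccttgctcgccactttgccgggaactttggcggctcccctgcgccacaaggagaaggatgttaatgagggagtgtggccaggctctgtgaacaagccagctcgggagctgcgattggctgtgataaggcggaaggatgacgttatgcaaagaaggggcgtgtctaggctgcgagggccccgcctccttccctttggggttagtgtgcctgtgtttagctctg
Foxo1, 250 bp before the start, chr3:52072009-52072258: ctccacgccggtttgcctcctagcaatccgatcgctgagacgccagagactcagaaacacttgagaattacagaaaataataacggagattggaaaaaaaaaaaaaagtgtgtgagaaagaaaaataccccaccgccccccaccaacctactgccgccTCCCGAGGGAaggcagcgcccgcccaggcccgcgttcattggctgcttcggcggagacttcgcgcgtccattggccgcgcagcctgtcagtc
Among 32851 RefSeq promoter windows of mouse (GRCm38.p6, 250 bases before to 50 after a start), 0.904% held the EBF letters on either strand. The *Foxo1* promoter was 1 of these, and its match began 92 bp before the start. The *Ebf1* window above held none of the motifs searched.

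The second set holds the middle 300 bp of the Pax5 rows of the *Ebf1* locus that scored highest upstream of the gene and inside it, and of the row that held the EBF letters. All are plus strand of NCBIM37, and capitals mark a searched motif on either strand.
Ebf1, Pax5 row at -42.3 kb, chr11:44388348-44388647: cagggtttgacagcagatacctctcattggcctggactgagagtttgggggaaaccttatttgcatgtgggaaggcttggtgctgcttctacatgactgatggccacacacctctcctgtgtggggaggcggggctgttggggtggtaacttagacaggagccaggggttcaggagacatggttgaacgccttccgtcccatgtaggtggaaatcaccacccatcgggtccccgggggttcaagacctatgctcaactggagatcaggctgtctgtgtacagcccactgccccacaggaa
Ebf1, Pax5 row at -5.9 kb, chr11:44424764-44425063: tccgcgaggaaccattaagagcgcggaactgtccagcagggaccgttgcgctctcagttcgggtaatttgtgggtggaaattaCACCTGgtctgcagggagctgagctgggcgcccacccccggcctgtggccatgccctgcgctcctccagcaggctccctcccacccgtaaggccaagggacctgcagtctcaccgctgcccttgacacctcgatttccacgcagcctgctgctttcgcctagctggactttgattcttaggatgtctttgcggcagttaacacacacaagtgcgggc
Ebf1, Pax5 row at -4.2 kb, chr11:44426455-44426754: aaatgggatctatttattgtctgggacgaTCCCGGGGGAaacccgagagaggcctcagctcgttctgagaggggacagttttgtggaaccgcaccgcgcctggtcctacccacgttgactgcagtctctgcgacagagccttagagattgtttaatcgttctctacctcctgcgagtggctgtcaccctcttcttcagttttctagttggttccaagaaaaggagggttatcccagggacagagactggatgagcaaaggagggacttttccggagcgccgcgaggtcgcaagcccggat
Ebf1, Pax5 row in intron 10, chr11:44763923-44764222: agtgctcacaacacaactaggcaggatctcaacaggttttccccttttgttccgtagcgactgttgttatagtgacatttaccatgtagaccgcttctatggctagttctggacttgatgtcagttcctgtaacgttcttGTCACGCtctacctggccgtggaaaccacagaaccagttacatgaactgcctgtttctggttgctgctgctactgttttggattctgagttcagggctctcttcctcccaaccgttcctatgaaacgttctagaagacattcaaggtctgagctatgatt
In the intron 10 row the capitals are GCGTGAC, the core of the known Pax5 motif, on the minus strand at 44764063 to 44764069, 9 bp before the midpoint of the row. In the row at -4.2 kb they are the EBF letters, and in the row at -5.9 kb they are CAGGTG, an E-box of the E proteins, read on the minus strand. The row at -42.3 kb held none of the motifs in this window.

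The third set shows searched motifs outside the middle of a row, with 20 bases on each side. The first of them is a further EBF match in the *Ebf1* row at -4.2 kb, and the others lie in the *Foxo1* locus, at its start and in a wide Pax5 row past the gene's end.
Ebf1, EBF letters in the row at -4.2 kb, chr11:44425979-44426028: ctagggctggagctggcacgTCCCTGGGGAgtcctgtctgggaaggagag
Foxo1, FOXO letters before the start, chr3:52071966-52072012: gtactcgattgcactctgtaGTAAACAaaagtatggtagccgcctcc
Foxo1, Pax5 core in the row past the gene's end, chr3:52200354-52200400: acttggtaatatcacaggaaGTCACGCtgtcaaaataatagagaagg
Foxo1, Pax5 core in the same row, chr3:52202392-52202438: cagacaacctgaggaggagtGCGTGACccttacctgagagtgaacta
Foxo1, FOXO letters in the same row, chr3:52201441-52201487: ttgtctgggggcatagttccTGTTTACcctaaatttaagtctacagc
The row past the gene's end thus held the Pax5 core on both strands, and the FOXO letters GTAAACA on the minus strand. All sequences shown are of the reference genome and were not read from these libraries.

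At their starts, both genes had rows of all 3 lists. Within 1000 bp of an annotated start, 49% of protein-coding genes had an H3K27ac row, 53% an H3K4me3 region, 38.1% a Pax5 row and 34.9% all 3, so a start of this kind was shared with many genes. For *Ebf1*, 2 H3K27ac rows, 1 H3K4me3 region and 2 Pax5 rows lay there. For *Foxo1* it was 1 row of each list. Of whole lists, 27.2% of H3K27ac rows, 66.5% of H3K4me3 regions and 52% of Pax5 rows lay at a start of a protein-coding gene.

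The first and second start groups of *Ebf1* lay under 1 H3K4me3 region, 44429996 to 44434320, as joined across gaps of up to 100 bp. Width ranks were not recomputed for other joins. At 4325 bp it ranked 96 by width, and 0.545% of the regions in the list were at least as wide, against a median of 1025 bp. The Pax5 row at 44430069 to 44431541 covered the first start with a score of 380.59, and a second Pax5 row of 148.05 followed at 44431646 to 44432350. The score is the number the authors' peak caller gave each row. Its scale is not named, it was read only within a list, and its median was 207.46 for Pax5 and 8.52 for H3K27ac.

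H3K27ac at the *Ebf1* starts was unequal. The row over the first start, 44430170 to 44431772, scored 16.9 and also covered the second start group. The next row, 44431958 to 44434264, began after both and scored 61.3, rank 2672 in the list. This row held a second start that RefSeq gives for *Ebf1*, which an exact match of its sequence placed at 44433730, 1533 bp from the nearest GENCODE start. The first RefSeq start fell at 44431602, 16 bp from a GENCODE start.

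The third *Ebf1* start, of a non-coding transcript, had no row over it. Its nearest H3K27ac row was 999 bp away, just inside the radius, its nearest H3K4me3 region 943 bp away and its nearest Pax5 row 2913 bp away. The fourth start, 294821 bp into the gene and also of a non-coding transcript, had its nearest H3K27ac row 1003 bp away, just outside the radius. H3K4me3 was 18970 bp and Pax5 9863 bp from it. The lists thus placed promoter marks at the 5' end of *Ebf1* and none at the internal start.

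Upstream of *Ebf1* there were 2 further groups of rows with H3K4me3 at which GENCODE M1 has no start of any gene within 1000 bp. The nearer group lay between about -6 and -4 kb. It held H3K4me3 regions of 700 bp (44424721 to 44425420) and 1550 bp (44425671 to 44427220). It also held 3 H3K27ac rows, each with a score of 12.3. The Pax5 row over the first region, 44424262 to 44425566, scored 588.52, rank 1972 and above the row at the annotated start. The Pax5 row over the second, 44425873 to 44427337, scored 144.67, below the list median, and held both EBF matches printed above.

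The far group lay between -42.9 and -35.8 kb and carried the highest H3K27ac score of either locus. Its 6 H3K27ac rows covered 82.3% of 7.072 kb. The row 44389620 to 44392667 was 3048 bp wide and scored 69.3, and 3.04% of the list scored at least as high. Its neighbour 44388585 to 44389532 scored 49.7 and the row before that, 44387954 to 44388425, scored 20.9. These 3 values stood above the 16.9 of the row on the annotated first start. Only the 69.3 stood above the 61.3 of the next row at the starts.

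H3K4me3 was also listed in this far group, in 4 regions of 1800, 300, 100 and 225 bp. A further region of 325 bp, 44387246 to 44387570, lay just before the group and overlapped no H3K27ac row. The widest, 44387721 to 44389520, exceeded the list median width and the others were narrower. Over it lay a Pax5 row, 44388079 to 44388917, with a score of 483.48. A second Pax5 row at 44391005 to 44392064 scored 104.72. The group lay past the 3' end of *Rnf145*, the next protein-coding gene upstream, whose body ended at 44379022. The start of the non-coding gene 4930597A21Rik at 44399819 had no row of any list within 1000 bp.

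**Figure D1:**
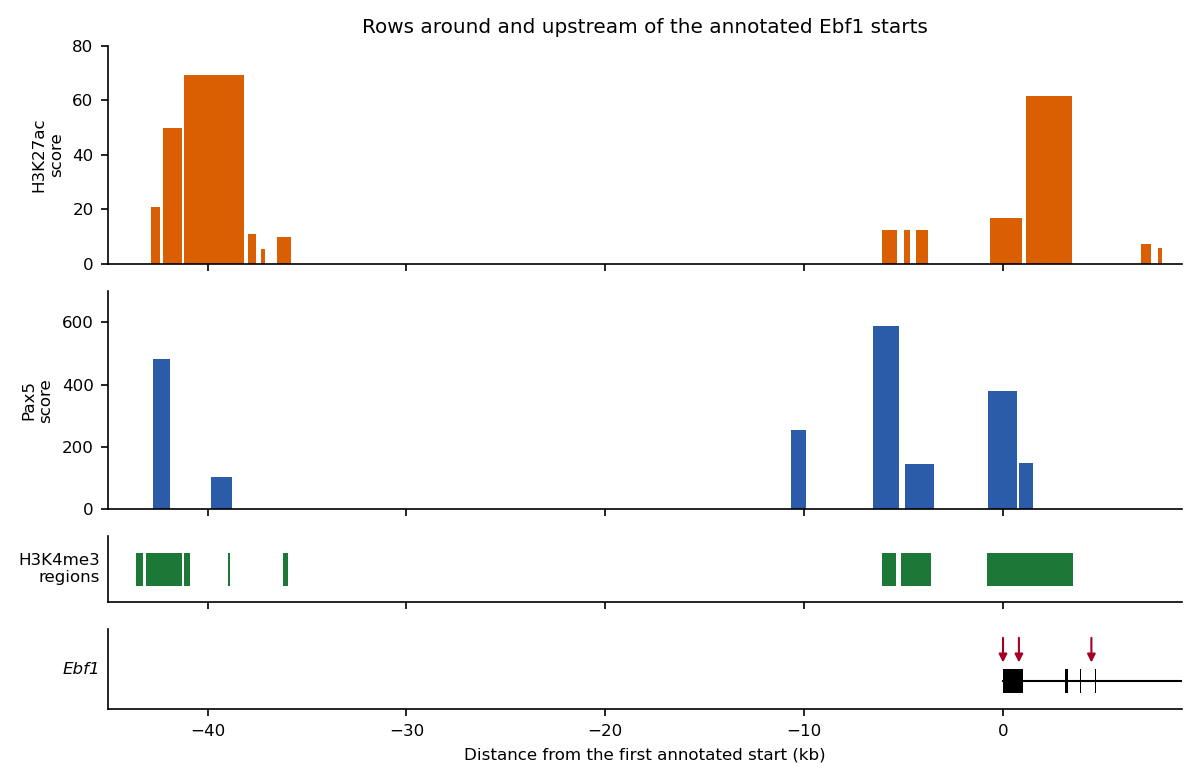
H3K27ac and Pax5 rows (height, the deposited score of each list, bar width, the row's extent), H3K4me3 regions (green bars, no score) and *Ebf1* exons with annotated starts (black boxes, red arrows) around and upstream of its starts, in kb from the first start. Rows form 3 groups, near -42 to -36 kb, near -6 to -4 kb and at the starts, and 1 Pax5 row of 253.88 at -10.3 kb stands without either mark.

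A single Pax5 row lay between these groups, at 44420156 to 44420898 or -10.3 kb, with a score of 253.88, and neither histone mark overlapped it. In all, 9 of the 11 Pax5 rows of the *Ebf1* locus overlapped H3K27ac, 81.8% beside 79.3% of the whole Pax5 list. With H3K4me3 it was 7 of 11, 63.6% beside 61%. The other row that neither mark overlapped was also the lowest, 94.47 at 44470407 to 44470737 in intron 6. It was 331 bp wide, 33.7% of its middle 300 bp were G or C and it held no CpG, whereas the median over the Pax5 list was 57.3%.

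The body of *Ebf1*, 390.775 of the 490.775 kb of the locus, held most of its H3K27ac rows. Per 100 kb the body held 18.4 rows, near the 16.7 of the whole locus. Of 82 rows, 68 lay in introns, 2 in exons, 2 at the starts, 9 upstream and 1 downstream. The intronic rows were narrow and low, with a median score of 6.65 and a median width of 272.5 bp against 428 bp for the list. Their scores ran from 3.97 to 28.3. Over the whole locus 24 of 82 rows scored above the median of the list, and 6 of 11 Pax5 rows did.

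These intronic rows were unevenly spread along the gene, numbered here by the introns of the full-length transcript Ebf1-001. Intron 6, the longest at 225.6 kb, held 15 rows that covered 2.58% of it. Introns 7, 8 and 9 held 9 rows each and introns 7 and 8 were covered to 29.5% and 29.1%. Intron 10 held 16 rows, and 19.3% of it was covered. Toward the 3' end, intron 15 was covered to 23.1% by 5 rows with scores of up to 9.75.

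A stretch of 136.377 kb, from 8.0 to 144.4 kb after the first start, held no H3K27ac row. The reference has no unknown base there and its GC content was 42.0%, beside 42.4% for the whole window. The Pax5 row of 94.47 lay inside this stretch. The non-coding gene Gm12158 starts in it as well, and no row lay within 1000 bp of that start.

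The first H3K27ac rows after the stretch included 1 of 25.0 at 44577617 to 44579470 in intron 6, 147.7 kb from the start, without Pax5. Further on, 45 rows between 44678713 and 44769076 formed 1 cluster when gaps of up to 10 kb were joined. It was 90.364 kb long, which ranked 51 among 19019 such clusters of the genome, and 0.268% were at least as long. By number of rows it ranked 37, and 0.21% had at least as many. H3K27ac covered 26.1% of its length. With gaps of up to 5000 bp the longest cluster of *Ebf1* was 37.6 kb and the most rows in one were 21. Among rows scoring above the list median they were 23.7 kb and 6.

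Within this cluster lay 3 of the 4 intronic Pax5 rows. In intron 8, the row 44706220 to 44707160 scored 148.60 and overlapped the only intronic H3K4me3 region of *Ebf1*, 225 bp at 44706446 to 44706670. The row 44715074 to 44715777 in the same intron scored 268.20 and overlapped an H3K27ac row of 14.1. The third, 44763588 to 44764557 in intron 10, had the highest Pax5 score of the locus, 597.83 (rank 1921), and lay in the highest intronic H3K27ac row, 28.3 at 44763077 to 44765572. It had no H3K4me3, and its middle held the Pax5 core printed above. In the whole list, 12.4% of Pax5 rows scored at least as high.

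**Figure D2:**
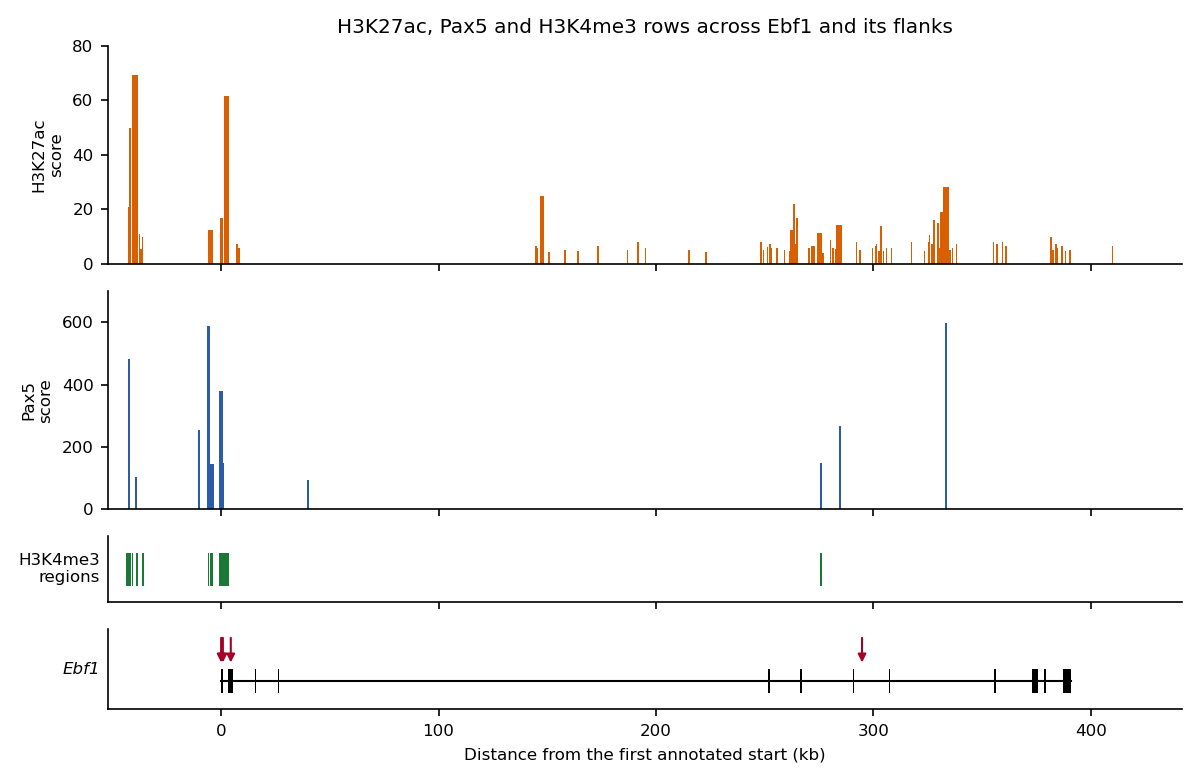
H3K27ac and Pax5 rows (height, the deposited score, with a minimum drawn width), H3K4me3 regions and *Ebf1* exons and starts over the gene and 50 kb on each side, in kb from the first start. H3K27ac rows reach 69.3 upstream and 61.3 at the starts, none lies from 8.0 to 144.4 kb, and a run of 45 rows of at most 28.3 fills the stretch from 247.9 to 338.3 kb.

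By number of rows *Ebf1* stood near the top of the genome. Its 82 H3K27ac rows ranked 11 among 22350 protein-coding genes, and 0.0582% of genes had at least as many in body and flanks. Per length this was less marked: 16.7 rows per 100 kb, against 3.71 for the median gene, was reached by 8.28% of genes. With rows joined across gaps of up to 1000 bp the locus held 45 rows and ranked 3, and with only the higher-scoring 50% of the list it held 24 and ranked 79. Its 11 Pax5 rows ranked 28 and 0.277% of genes had at least as many, while per length 26.5% did. Of H3K4me3 it had 9 regions, a number that 3.23% of genes reached or passed, and 42.2% did so per length. By share of the window covered, *Ebf1* ranked 3447 of 22350 for H3K27ac, with 9.16% against 2.26% for the median gene. For Pax5 it ranked 6791 and for H3K4me3 9937.

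*Foxo1* was different in layout. Its H3K27ac rows were fewer, 14 in all, with a median score of 10.2, and 9 of them scored above the list median. Of the 14 rows 1 was at the start, 6 in intron 1 away from any start, 1 upstream and 5 downstream. The other, at the start of an antisense transcript, also lay in intron 1. By number, 20.5% of genes had at least as many, and per length 29.6%. Its 2 H3K4me3 regions were matched or passed by 57.6% of genes (54% per length), and its 4 Pax5 rows by 20.2% (26.8% per length).

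At the start of *Foxo1*, a joined H3K4me3 region ran from 52070844 to 52075118, 4275 bp, rank 101 in width, and 0.562% of regions were at least as wide. The Pax5 row 52071541 to 52073397 covered the start with a score of 389.62, rank 3749. No H3K27ac row covered it. The nearest, 52071375 to 52072119 with a score of 14.1, ended 140 bp before the start, and the next, 52073391 to 52074122, scored 32.8. The start thus fell between H3K27ac rows and inside the rows of the other lists.

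The 32.8 row lay at the start of RP24-337A16.1, a processed transcript annotated on the minus strand at 52072357 to 52073357, and so did a second Pax5 row, 52073555 to 52074500, of 137.94. Both are also in the first intron of *Foxo1*, and ChIP-seq does not tell the strands apart. The Pax5 row of 389.62 and the H3K4me3 region of 4275 bp covered this antisense start too. A second H3K4me3 region of 325 bp followed at 52075344 to 52075668, with neither H3K27ac nor Pax5.

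Beyond its first kilobases, the body of *Foxo1* was bare of H3K27ac for 57.404 kb, from 1.9 to 59.3 kb after the start. The window has no unknown base in the reference. Then came 6 rows in the last part of intron 1, 52131527 to 52147725, with scores of 6.83 to 10.8. Joined across gaps of up to 10 kb they formed a cluster of 16.199 kb, a length that 12% of clusters reached. Neither H3K4me3 nor Pax5 was listed there, and no Pax5 row lay in the gene after 52074500.

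The highest H3K27ac of the *Foxo1* locus was not at its start but past its 3' end. The row 52199108 to 52202627 was 3520 bp wide and scored 56.0, and 4.75% of the list scored at least as high. Within it lay a Pax5 row of 2874 bp, 52199605 to 52202478, rank 77 in width, with a score of 318.92 (rank 4879) that was below that at the start. Its midpoint was 47011 bp after the gene end. H3K4me3 was not listed there. The rows of 14.1 (52196169 to 52197750) and 15.8 (52202764 to 52203452) stood on both sides, and 7 rows formed a cluster of 11.424 kb that ran past the edge of the window, a number of rows that 13.1% of clusters reached.

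No other gene's start was annotated within 1000 bp of these downstream rows. The next protein-coding gene on that side, *Gm10293*, began 262.68 kb after the end of *Foxo1* and had no row of any list at its start. Upstream, *Maml3* was 163.45 kb away, with rows of all 3 lists at its starts. The fourth Pax5 row, 52047609 to 52048202 at -24.4 kb, scored 124.15 and had neither mark.

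**Figure D3:**
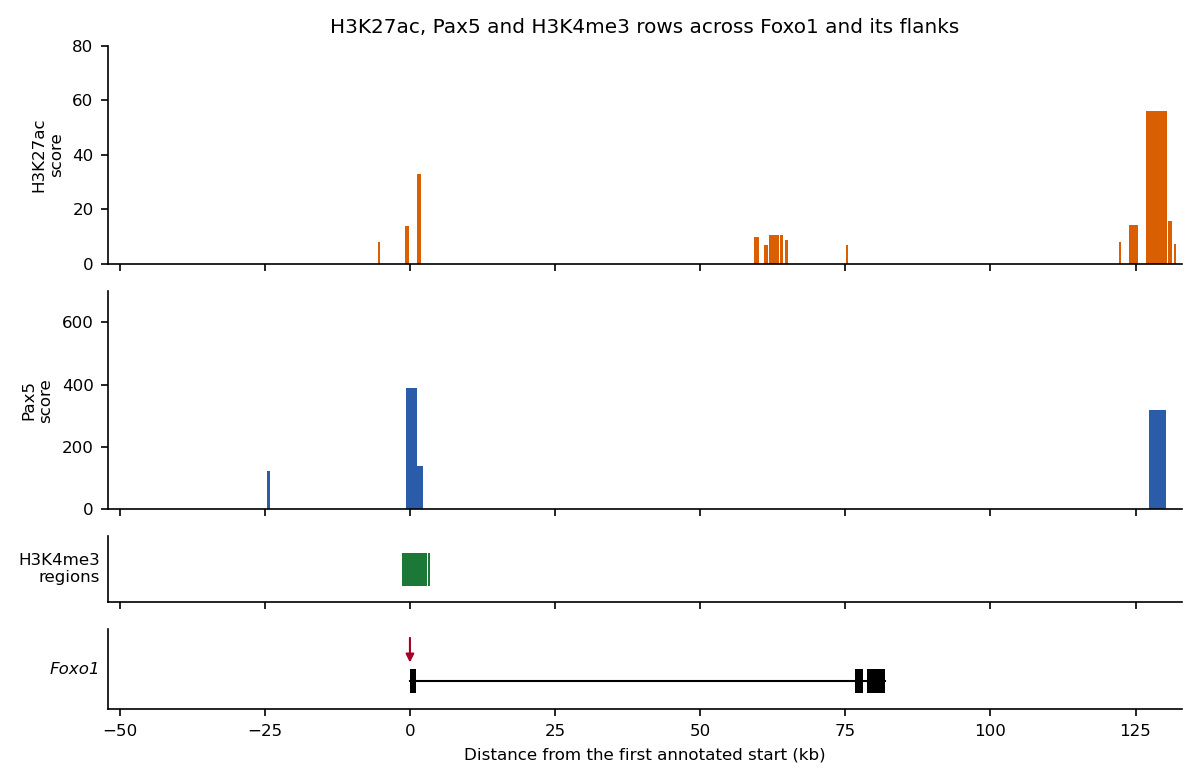
H3K27ac and Pax5 rows (height, the deposited score), H3K4me3 regions (green) and *Foxo1* exons with the annotated start (red arrow) over the gene and 50 kb on each side, in kb from the start. The highest H3K27ac row, 56.0, lies about 129 kb from the start together with a Pax5 row of 318.92 and no H3K4me3, and the Pax5 row over the start reaches 389.62.

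The overlap of the lists in both loci was read beside that of the whole lists. Most Pax5 rows of the 2 genes lay on H3K27ac, and most H3K27ac rows lay apart from Pax5. Both also held over the whole lists. A row counted as overlapping when it shared at least 1 bp with a row of the other list. Of 15 Pax5 rows 12 overlapped H3K27ac, 80% (95% exact binomial interval 51.9 to 95.7), beside 79.3% of the Pax5 list. With H3K4me3 it was 9 of 15, 60% (32.3 to 83.7), beside 61%. Of the 11 H3K4me3 regions 9 overlapped H3K27ac, beside 79.7% of that list, and 7 overlapped Pax5, beside 52.9%.

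From the other side, 14 of 96 H3K27ac rows overlapped Pax5, 14.6% (8.21 to 23.3), beside 25% of the H3K27ac list. For H3K4me3 it was 12 of 96, 12.5% (6.63 to 20.8), beside 28.3%. Among H3K27ac rows that scored in the higher 50% of the list, of which the loci held 33, the shares were 27.3% with Pax5 of the higher 50% and 36.4% with H3K4me3. Over all higher-scoring H3K27ac rows they were 26.6% and 49.4%. The intervals cover counting error only, and neighbouring rows of 1 gene are not independent of each other. The difference from the whole list was not tested.

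By location, the scores of *Ebf1* at its starts, upstream and in introns overlapped. In *Ebf1*, H3K27ac medians were 39.1 over the 2 rows at the starts (16.9 and 61.3), 12.3 over 9 upstream rows (5.41 to 69.3) and 6.65 over 68 intronic rows (3.97 to 28.3). In *Foxo1* they were 9.35 over 6 intronic rows (6.83 to 10.8) and 14.1 over 5 downstream rows (7.40 to 56.0). These 6 intronic rows all scored below the 14.1 of the row at its start. The row of 32.8, classed at the start of the antisense transcript, also lay in intron 1 and scored above it. For Pax5 in *Ebf1* the medians were 264.32 over 2 rows at the starts (148.05 and 380.59), 253.88 over 5 upstream rows (104.72 to 588.52) and 208.4 over 4 intronic rows (94.47 to 597.83).

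**Figure D4:**
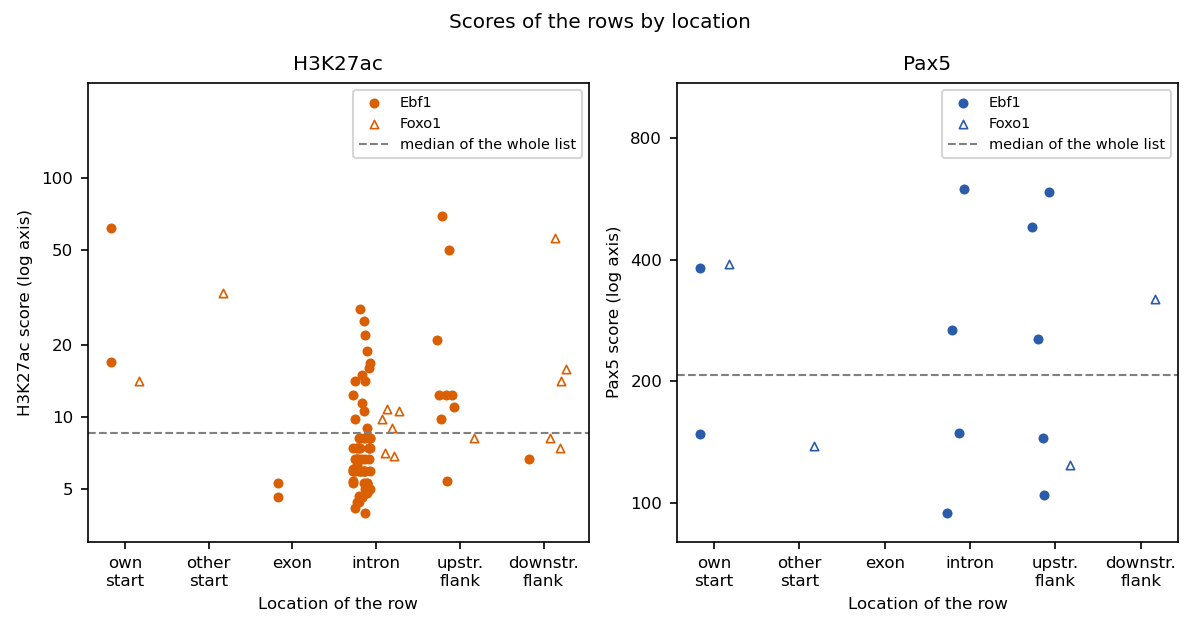
Deposited score of each H3K27ac row (left) and Pax5 row (right) of *Ebf1* (filled circles) and *Foxo1* (open triangles) by location, log axes, with the median of the whole list as a dashed line (8.52 and 207.46). In *Ebf1* the intronic H3K27ac rows gather below the median while upstream and start rows reach 69.3 and 61.3, and *Ebf1* Pax5 rows at starts, in introns and upstream lie on both sides of the median.

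Motif letters were counted in the middle 300 bp of each Pax5 row on both strands. CAGCTG and the EBF letters read the same on both strands, and no searched motif overlapped another in the sequences printed above. CAGGTG was in 5 of 11 rows of *Ebf1* and 3 of 4 of *Foxo1*, beside 24.3% of all Pax5 rows. CAGCTG was in 2 rows of *Ebf1*, beside 24.4%. The Pax5 core was in 1 of 11 rows and 0 of 4, beside 5.71%, and the EBF letters likewise in 1 of 11 and 0 of 4, beside 1.71%. FOXO letters were in none, beside 3.09%.

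Over whole rows, whose lengths differ, the FOXO letters were in 3 of the 4 *Foxo1* rows, beside 10.7% of the list, and in none of *Ebf1*. The *Foxo1* rows had a median width of 1401.5 bp against 965 bp for the list, so they offer more letters. A match of letters is a description and is not evidence of binding by the named factor. By base composition, the middle of the Pax5 row at the *Foxo1* start was 73.7% G or C with a CpG observed-to-expected ratio of 1.13. The row over the first *Ebf1* start had 53.3% and 0.33, and the row in intron 1 next to it had 65.7% and 1.05. The medians over the Pax5 list were 57.3% and 0.58. The Pax5 row in *Ebf1* intron 10 had 46.3% and 0.50, and that downstream of *Foxo1* 54.7% and 0.18.

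Of the family members, *Ebf1* was alone among the 4 *Ebf* genes in having H3K27ac or Pax5 rows at a start. Among all protein-coding genes, 49% had H3K27ac and 38.1% Pax5 there. *Ebf2* had 0 H3K27ac rows, 1 H3K4me3 region and 0 Pax5 rows in body and flanks, and *Ebf3* had 0, 1 and 1. *Ebf4* had 4, 4 and 2, with 2 H3K4me3 regions at its starts of up to 875 bp. *Ebf2* is 196.5 kb long and *Ebf3* 120.8 kb, so they offered long bodies too.

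All 4 *Foxo* genes had an H3K4me3 region at a start, and 3 had a Pax5 row there, beside 53% and 38.1% of all protein-coding genes. *Foxo3*, a close relative of *Foxo1*, had 24 H3K27ac rows, 3 H3K4me3 regions and 3 Pax5 rows, more of the first 2 than *Foxo1*, in a body of 94.92 kb. Its start had a Pax5 score of 1402, an H3K27ac score of 66.9 and an H3K4me3 width of 4325 bp, against 389.62, 14.1 and 4275 bp for *Foxo1*. *Foxo4* had 8, 5 and 1 rows and *Foxo6* 1, 2 and 1. *Foxo4* is 6.35 kb long, so its window is nearly all flank and can hold rows of neighbouring genes.

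**Figure D5:**
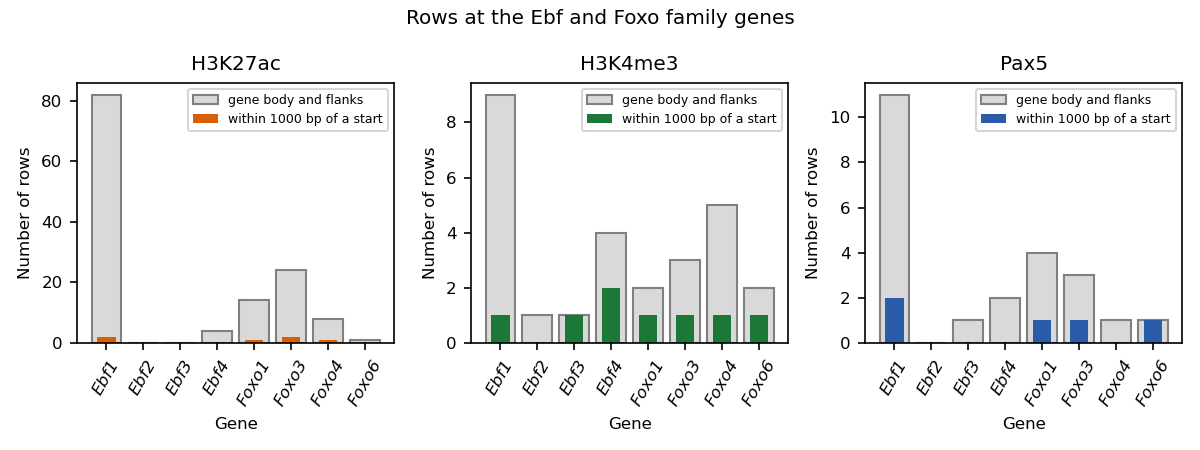
Number of H3K27ac, H3K4me3 and Pax5 rows in the gene body and 50 kb flanks (grey bars) and within 1000 bp of a start (coloured bars) of the *Ebf* and *Foxo* genes. *Ebf1* has 82, 9 and 11 rows where *Ebf2* has 0, 1 and 0, and *Foxo3* has more H3K27ac rows (24) than *Foxo1* (14).

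The genes that act with Ebf1 and Foxo1 were read at their starts beside the shares over all genes given above. The lists of these genes were chosen with earlier results of these data known. Of 18 regulators of the early B lineage, 18 had rows of all 3 lists at a start, beside 34.9% of protein-coding genes. *Tcf3*, the E protein gene that acts upstream of *Ebf1*, had a Pax5 score of 655.3 there, and *Pax5* itself 469.2 with an H3K4me3 region of 9700 bp. Among these genes *Runx1*, with 79 H3K27ac rows, *Bcl11a*, with 70, and *Ikzf1*, with 61, came closest to the 82 of *Ebf1*. *Bach2*, with a body of 347.3 kb close to that of *Ebf1*, had 31. Among all genes named here, the one that passed *Ebf1* by number was *Foxp1*, a forkhead gene of the signal list, with 87 in a window around 341.2 kb of gene. Windows differ in length, and per 100 kb the order was another. *Ebf1* had 16.7 H3K27ac rows per 100 kb, inside the range of the 18 regulators, 5.17 (*Tcf12*) to 40.4 (*Myb*). *Runx1*, *Bcl11a* and *Ikzf1* had 24.3, 35.7 and 32.5, *Foxp1* had 19.7 and *Bach2* 6.93.

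Over all protein-coding genes, H3K27ac was at a start of 49%, H3K4me3 of 53% and Pax5 of 38.1%. Known targets of Ebf1, genes of the pre-B cell receptor and its signalling, had H3K27ac and Pax5 at the starts of 7 of 7. For H3K4me3 it was 6 of 7. *Vpreb1*, a surrogate light chain gene, had a Pax5 score of 1163 and *Igll1*, the other surrogate light chain gene, had no H3K4me3 region there. Known targets of Foxo1 had H3K27ac at 9 of 9 starts, H3K4me3 at 9 and Pax5 at 8. Among them the Pax5 score reached 2008 at *Ccng2*, a cell cycle gene, and was 424.7 at *Rag1* and 175.8 at *Il7r*, the receptor chain for interleukin 7. The 6 genes of the signal to Foxo1 all had rows of the 3 lists at a start, beside 34.9% of protein-coding genes. Among the 6 were *Akt1* (Pax5 score 262.9) and *Akt2* (Pax5 score 382.9), kinases that phosphorylate Foxo1.

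The label of the cells was read from starts of marker genes. Over all protein-coding genes, 49% had H3K27ac, 53% H3K4me3 and 38.1% Pax5 at a start. H3K27ac, H3K4me3 and Pax5 were at 6, 5 and 6 of 6 B lineage markers, at 1, 0 and 1 of 5 T lineage markers (*Cd5*, which some B cells also express), at 3, 2 and 0 of 5 myeloid markers, at 2, 1 and 0 of 3 erythroid markers and at 0 of 3 genes of liver, nerve and muscle. The highest H3K27ac score at a start was at most 11.4 for myeloid and 16.3 for erythroid markers, while for B lineage markers it was 28.0 to 101.2. At *Cd5*, the T lineage marker with a row, it was 61.3, within the B lineage range. The part that other marrow cells have in the rows of *Ebf1* and *Foxo1* was not tested.

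Genes most like each in layout were found from 6 numbers, the log2 of 1 plus the number of rows of each list in the body and in the flanks. Nearest to *Ebf1* were *Vav2* at a distance of 1.45, *Ankrd11* at 1.54 and *Katnal1* at 1.55. *Vav2*, a guanine nucleotide exchange factor of antigen receptor signalling, had 49 H3K27ac rows in its body against 72 in that of *Ebf1*. Nearest to *Foxo1* were *Il28ra* at 0.64, *Eya1* at 0.69 and *Mfhas1* at 0.74. On this measure *Ebf1* had no gene as close to it as *Foxo1* had. The measure is made of row counts, and few genes have as many rows as *Ebf1*. This contrast is therefore not a result apart from its counts.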

How the data were processed

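H3K27ac, H3K4me3 and Pax5 were immunoprecipitated from pre-B cells, each in 1 library. Inputs were sequenced too (3 samples) and are not used here. According to the study's methods, duplicate reads were removed, adapters were trimmed and reads were aligned with Bowtie to mm9, with up to 2 mismatches and keeping the best sites of reads that had at most 3. The submitters' processing notes name Bowtie 0.12.9, another version than the methods, and MACS 1.4.2. Peak-calling settings for these lists are not given in the sources used here, other than that Pax5 rows were called against pre-B input. The deposited H3K27ac and Pax5 lists give the authors' peak caller score per row, of unnamed scale. The deposited H3K4me3 list gives other values, namely the bounds of 25 bp bins, which were joined across gaps of up to 100 bp. Joining makes the count of regions depend on the gap allowed, and narrow rows split from a broad domain raise counts of H3K27ac.

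Rows were assigned in order to a start of the gene (within 1000 bp), a start of another gene, an exon or intron by midpoint, or a flank. Genes and positions are those of GENCODE M1 on NCBIM37. A pseudogene entry that shares the name Ebf1 was left out. RefSeq sequences came from tables of GRCm38.p6, and RefSeq starts were placed on NCBIM37 by exact match. Shares of counts carry 95% exact binomial (Clopper-Pearson) intervals. Counting of rows and overlaps was tested on simulated data. The genes, gene lists, markers and motifs were chosen with earlier results of these data known. Rows named singly are every Pax5 row, rows at starts, the 5 highest H3K27ac rows and 3 widest H3K4me3 regions per locus, and some further rows chosen after their values were seen. Named genes are the family, the pathway lists, genes that start in the loci and the 3 genes nearest in layout. Some genes of the pathway lists are counted but not reported singly here. Alternatives were other flanks, radii, joins, overlap rules, cluster gaps, motif windows and lists of the higher-scoring 50%. Python 3.11.15, numpy 2.4.6, scipy 1.17.1, pysam 0.24.0 and matplotlib 3.10.9 were used.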

Additional observations from a re-analysis of the deposited data

How the results depend on the processing

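Of 90 alternative values over 36 results, 54 stayed within the limits set for a change and 36 moved. With gene bodies alone, *Ebf1* had 2 H3K4me3 regions and 6 Pax5 rows and *Foxo1* 7 H3K27ac and 2 Pax5 rows. With flanks of 100 kb, *Foxo1* had 27 H3K27ac rows, 4 H3K4me3 regions and 8 Pax5 rows. With the higher-scoring 50% of each list, *Ebf1* kept 24 H3K27ac and 6 Pax5 rows and *Foxo1* 9 and 2. In that list the longest H3K27ac cluster of *Ebf1* was 23.7 kb, the most rows in a cluster were 6, and for *Foxo1* these were 9.69 kb and 4. There, 27.3% of H3K27ac rows of both loci overlapped Pax5 and 36.4% H3K4me3. With cluster gaps of up to 5000 bp, the longest cluster of *Ebf1* was 37.6 kb and the largest held 21 rows. With H3K27ac rows joined across gaps of up to 1000 bp, a setting that was added once the data had been seen, *Ebf1* had 45 rows and *Foxo1* 8. With H3K4me3 bins joined only where they touch *Foxo1* had 4 regions, and with gaps of up to 1000 bp it had 1. A radius of 2500 bp gave 4 H3K27ac rows at starts of *Ebf1*, and 2 H3K27ac and 2 Pax5 rows at that of *Foxo1*. On RefSeq starts, added at the same stage, 1 start of *Ebf1* had Pax5. In whole rows in place of the middle 300 bp, 2 of the 15 Pax5 rows of both loci held the EBF letters, 2 the Pax5 core, 3 the FOXO letters, 4 CAGCTG and 14 CAGGTG, beside 4.95%, 11.5%, 10.7%, 50.2% and 58.2% of the list. Of 93 whole H3K27ac rows away from starts, 2, 2, 7 and 24 held the first 4 of these, beside 2.35%, 1.51%, 8.42% and 31.1% of such rows in the list. Whole rows are longer, longer flanks hold more sequence and shorter lists fewer rows by construction. No paired analysis was possible because no group holds more than 1 sample.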

Other observations

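Farther downstream of *Foxo1* than the window reaches lay a Pax5 row that scored higher than any inside it. The row chr3:52247586-52248939 scored 1704.46 and ranked 114 of 15445 in the list. It began 93.6 kb after the end of *Foxo1*, overlapped H3K27ac rows of 16.9 and 50.2, and had no H3K4me3. A second Pax5 row of 119.86 at 52244092 to 52245212 stood next to it. The next protein-coding start on that side is that of *Gm10293*, 262.68 kb after the end of *Foxo1*, and no link of these rows to either gene was measured. Past the *Ebf1* window, 5 H3K27ac rows of 5.26 to 18.9 lay from 44873039 to 44877062, about 51 to 55 kb after the gene end. A wider row of 32.8 at 44901845 to 44904543 overlapped a Pax5 row of 96.51.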
